A study of Homo sapiens with 10 samples.

Results

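The transcriptome of MEG-01 cells was described from the 5 arrays of cells that received a scrambled control precursor, out of 10 arrays in all. MEG-01 is an established human megakaryoblastic leukemia line that carries the BCR-ABL1 fusion. The cells were nucleofected with 200 nM of a control microRNA precursor of random sequence with no known human target, and total RNA was taken after 24 hours. The titles give 5 biological replicates, and the design describes them as independent experiments carried out at the same time, all from this line. Every array here comes from transfected cells, so that the line is described as it was after nucleofection, although a source label of these samples reads no treatment. Cyanine 3-labeled cRNA amplified from the total RNA was hybridized in a single channel to Agilent arrays with 42405 probes other than controls, and cyclic loess was used to normalize the log2 signals of the arrays to each other. A feature, which is a gene with a symbol or otherwise an accession of the array's design, was called detected when a probe was well above background on all 5 arrays. In this way 13388 of 35267 features (38%) were detected, and 9757 of 19099 genes with a symbol (51.1%). Genes are described below in lists that were chosen with earlier results of these data known. The share of a list that was detected is therefore a description and no independent test. Features were ranked by the mean normalized log2 signal of their brightest detected probe. The brightness percentile of a gene is the share of detected features with a signal at or below its own. A probe's brightness also depends on its sequence, so that ranks order signals and not amounts of transcript between genes.

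Megakaryocytes arise from a progenitor that they share with red cells. GATA1, its partner ZFPM1, the TAL1, LMO2 and LDB1 complex, RUNX1, FLI1 and NFE2 act in this lineage, and GATA2 acts in its early precursors. Maturing megakaryocytes replicate their DNA without dividing, assemble the integrin ITGA2B and ITGB3 and the GP1B, GP9 and GP5 complex at the surface, store PF4, VWF and other cargo in granules, and extend proplatelets along microtubules that contain TUBB1. A megakaryoblast is an early cell of this series.

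The arrays differed in how much of the design rose above background. The share of spots well above background ranged from 43.1% in replicate 2 and 46.7% in replicate 1 to 61.2% in replicate 5, and no spot was saturated. Replicate 2 had the highest median log2 signal of the 308 negative control spots, at 3.32, against 2.19 to 2.69 on the other arrays. Of 2055 probes that were above background on exactly 4 arrays, 1844 failed on replicate 2. Probes detected on all 5 arrays had a median normalized log2 signal of 8.64, and the probes that failed on a single array had a median of 5.69. Probes that failed on a single array were thus dimmer at the median, though not each of them was dim. A gene described here as not detected had no probe above background on all 5 arrays. That does not show that its transcript was absent. Without replicates 1 and 2, the number of genes with a symbol detected on every array left was 11664.

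All 4 genes that mark the lineage were detected on every array. The normalized log2 signal of GATA1, the erythroid and megakaryocytic zinc finger factor, was 10.18, 9.88, 10.22, 10.03 and 10.51 in replicates 1 to 5 (mean 10.17 ± 0.24, SD, n = 5), at the brightness percentile 69.7. GATA2 had 8.84, 8.70, 8.84, 8.93 and 8.84 (mean 8.83 ± 0.08), at percentile 51.2. TAL1, the helix-loop-helix factor of the same complex, had 10.19, 10.42, 10.44, 10.44 and 10.69 (mean 10.44 ± 0.18), at percentile 72.7. These 3 factors lay near or above the middle of the detected features, with an SD of 0.24 or less. ITGA2B, the alpha subunit of the platelet fibrinogen receptor, had 9.60, 9.36, 10.15, 9.90 and 10.66 (mean 9.93 ± 0.50), at percentile 67.1. Its values were lowest on replicates 1 and 2, the arrays with the fewest spots above background, and its SD was larger than that of 86.6% of detected features. Whether the difference between these arrays played a part in it was not tested. Each of these 4 genes had a single probe.

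**Figure D1:**
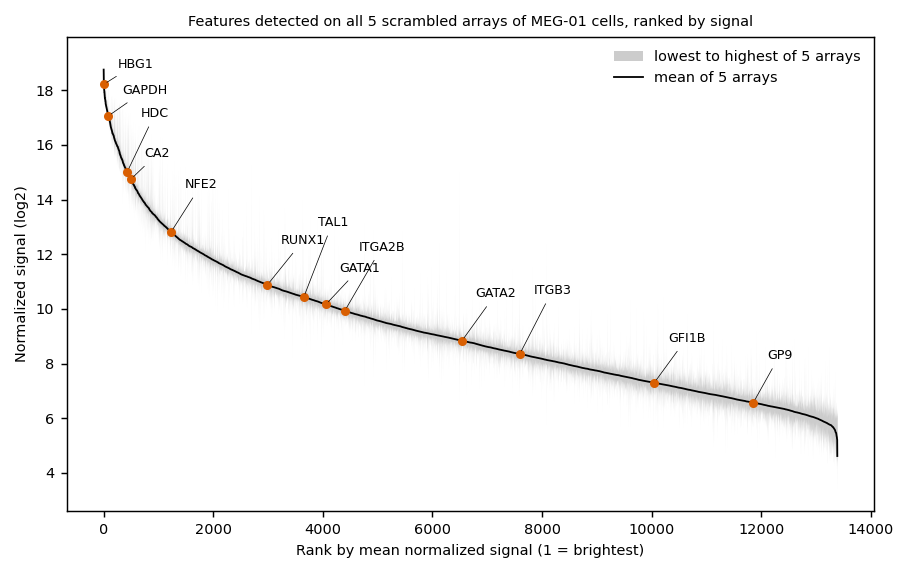
Mean normalized log2 signal (vertical axis) against rank (horizontal axis, 1 is the brightest) for the 13388 features detected on all 5 scrambled arrays, with the range over the arrays in grey and selected genes marked. HBG1 lies at the top of the curve, TAL1, GATA1 and ITGA2B in its upper part, and GFI1B and GP9 in its lower part.

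Of 24 transcription factors of the megakaryocytic and erythroid lineage, 20 were detected (83.3%, against 51.1% of all genes with a symbol). Their median percentile was 59.2, against 53.6 for all detected genes with a symbol. NFE2, the subunit of the factor that drives platelet release, was the brightest of them, with 12.74, 12.73, 12.86, 12.93 and 12.81. Its small Maf partner MAFG had a mean of 12.32 ± 0.15. MYB, which maintains immature blood progenitors, had a mean of 12.17 ± 0.14. Signals of NFE2, MAFG and MYB thus lay in the upper part of the range. KLF1, the factor for adult red cell genes, had 11.53, 11.49, 10.90, 11.07 and 10.60, and LMO2 had a mean of 11.01 ± 0.17. RUNX1 had a mean of 10.88 ± 0.12 on its brightest probe, while the other 4 probes of the gene had means between 5.11 and 9.25. That range within 1 gene shows how far the choice of probe moves a level. SPI1, the factor of the granulocytic and monocytic lineage, was detected at 10.21, 9.69, 9.45, 9.27 and 9.01. FLI1 (mean 7.11 ± 0.14, percentile 21.5), GFI1B (7.30 ± 0.07) and ZFPM1 (6.94 ± 0.46, percentile 18.3), which act in megakaryocyte maturation, were detected with low signals. LDB1, of the complex with TAL1 and LMO2, had the lowest mean of the detected factors, at 6.18. Among the factors not detected on all 5 arrays, ERG was above background on 4 arrays, MEIS1 on 2 and MECOM on 1.

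Of 27 platelet receptor genes with a probe, 17 were detected (63.0%, against 51.1% of all genes with a symbol), with a median percentile of 62.7. ITGB3, the beta subunit that pairs with ITGA2B, had 8.36, 8.20, 8.35, 8.11 and 8.73 (mean 8.35 ± 0.24). The collagen receptor GP6 had a mean of 8.16 ± 0.08, and its signalling chain FCER1G had 12.33, 12.10, 11.83, 11.69 and 11.32. Of the complex that binds von Willebrand factor, GP9 was detected at a mean of 6.57 ± 0.20, GP1BA was above background on 3 arrays and GP5 on 0. No probe matched GP1BB. The scavenger receptor CD36 had a mean of 10.19 ± 0.09, the Fc receptor FCGR2A one of 12.88 ± 0.09 and the tetraspanin CD151 one of 14.44 ± 0.07. Receptors for soluble agonists were detected in part. The purine receptor P2RY1 had a mean of 10.07 ± 0.34, the thromboxane receptor TBXA2R one of 10.60 ± 0.36 and the prostaglandin receptor PTGER3 one of 11.34 ± 0.18. The thrombin receptors F2R (mean 7.37 ± 0.24) and F2RL3 (9.57 ± 0.24) were both detected. The purine receptor P2RY12, the target of clopidogrel, was above background on 0 arrays, P2RX1 on 4, and the adrenergic receptor ADRA2A on 1. The collagen integrin subunit ITGA2, the laminin integrin subunit ITGA6, P-selectin (SELP) and CLEC1B were each above background on 1 array, and PEAR1 on 0.

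Granule cargo was the platelet list with the smallest share of detected members, at 13 of 27 (48.1%, against 51.1% of all genes with a symbol), with a median percentile of 48.9. PPBP, the platelet basic protein, had 9.37, 9.43, 9.45, 9.33 and 9.34 (mean 9.38 ± 0.05). The granule proteoglycan SRGN had a mean of 12.10 ± 0.06, and thrombospondin 1 (THBS1) one of 8.83 ± 0.14. These 3 genes varied little between arrays. TGFB1 had a mean of 12.10 ± 0.36, VEGFA one of 11.66 ± 0.15 and the protease inhibitor TIMP1 one of 14.61 ± 0.23, and all 3 are made by many other cell types. SPARC was detected near the lower end, at 6.12 ± 0.14. PF4, the platelet chemokine that defines maturing megakaryocytes, was above background on 0 arrays, as were PF4V1, F5, FGB, FGG and PDGFB. VWF, FGA and EGF were above background on 1 array, MMRN1 and GAS6 on 2, and F13A1 and CCL5 on 3. NBEAL2, which is needed for granule formation, had 6.49, 6.43, 7.48, 7.02 and 8.31 and VPS33B, which sorts proteins to granules, had 7.56, 7.39, 8.15, 7.99 and 8.45. Both were lowest on replicates 1 and 2 and highest on replicate 5, as was ITGA2B.

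**Figure D2:**
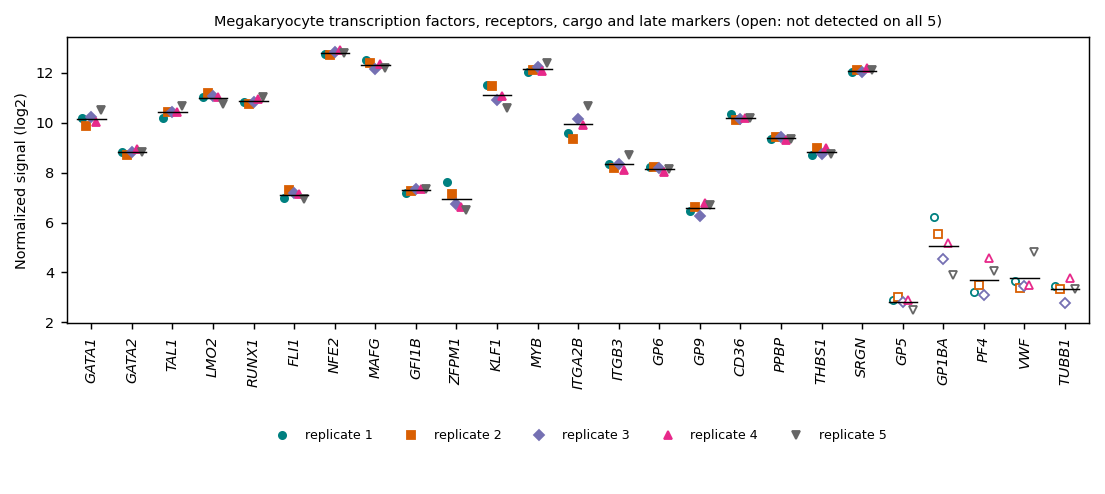
Normalized log2 signal (vertical axis) of each of the 5 scrambled arrays for genes of the megakaryocytic lineage, with the mean as a line. Filled symbols are genes detected on all 5 arrays and open symbols are genes that were not. The open symbols of GP5, GP1BA, PF4, VWF and TUBB1 lie at 6.22 or below, under every filled symbol.

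The interleukin 3 receptor IL3RA had a mean of 10.85 ± 0.11, the stem cell factor receptor KIT one of 9.25 ± 0.25 and the erythropoietin receptor EPOR one of 6.48 ± 0.28. Among 24 genes with a probe for cytokine receptors, JAK kinases, STAT factors and their inhibitors, 19 were detected (79.2%). The share of all genes with a symbol was 51.1%, and the 19 had a median percentile of 52.6. JAK2 (mean 7.16 ± 0.18, percentile 22.3) lay in the lower part of the detected features and STAT5A (8.92 ± 0.30, percentile 52.6) near their middle. The feedback inhibitors that cytokine signals induce lay in the upper part of the range. CISH had 12.47, 12.55, 12.55, 12.53 and 12.49 (mean 12.52 ± 0.04, percentile 89.5), SOCS2 had 14.22, 14.28, 14.70, 14.58 and 14.93 (mean 14.54 ± 0.29, percentile 95.9), and SOCS1 and SOCS3 had means of 11.99 ± 0.29 and 11.54 ± 0.32. CSF2RB, the shared chain of the interleukin 3 receptor, was above background on 4 arrays, CSF2RA on 3, IL6R on 2 and FLT3 on 0.

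Of 17 genes for BCR, ABL1 and the proteins that bind the fusion kinase, 14 were detected (82.4%). The share of all genes with a symbol was 51.1%, and the 14 had a median percentile of 57.0. ABL1 had 9.89, 9.67, 9.74, 9.55 and 9.20 on the brighter of 2 probes. BCR had 7.94, 7.31, 7.31, 7.21 and 7.24 on the brightest of 3 probes, of which the others were above background on 2 arrays and on 1. Its value on replicate 1 stood apart from the other 4. A probe of either gene can read the normal transcript, the fusion or both, and which of these it read is not given in the sources used here. The adaptors GAB2 (mean 11.31 ± 0.13) and SHC1 (11.04 ± 0.05), the kinase LYN (11.02 ± 0.10) and the phosphatase INPP5D (11.33 ± 0.19) all lay above percentile 75. They were the only 4 of the 14 detected members to do so. The adaptors GRB2, CRKL and DOK2 were detected below that percentile, and SOS1 had the lowest mean of the list, at 6.41. CRK was above background on 2 arrays and PIK3R1 on 3.

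The brightest lineage gene on the arrays was a globin. HBG1, a fetal gamma globin, had 18.56, 18.44, 17.97, 18.16 and 17.97 (mean 18.22 ± 0.27), and ranked 5 of 13388 features. Its second probe had a mean of 18.14 ± 0.29. No probe matched its near-identical copy HBG2, and the signal cannot be divided between the copies. HBA2 had 15.93, 15.37, 15.26, 14.95 and 14.86 (mean 15.27 ± 0.42), with the same limit, since no probe matched HBA1. The alpha globin signal was highest on replicate 1 and lowest on replicate 5. The embryonic globins were detected as well. HBE1 had 11.87, 11.89, 11.81, 11.94 and 11.30, and HBZ had 11.90, 11.11, 10.89, 10.95 and 10.81. The adult beta globin HBB had 10.65, 10.77, 10.94, 11.11 and 11.05 (mean 10.90 ± 0.19) and HBD had a mean of 9.85 ± 0.10. All 8 globin genes with a matched probe were thus detected, among them embryonic, fetal and adult forms, and globins of close sequence can share signal on a probe.

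Other red cell genes were detected as well. Over the whole list 25 of 28 genes with a probe passed (89.3%, against 51.1% of all genes with a symbol). Their median percentile was 70.3. The carbonic anhydrases CA1 and CA2 had means of 14.29 ± 0.13 and 14.75 ± 0.07. ALAS2, the red cell enzyme of the first step of heme synthesis, had 11.60, 11.53, 11.98, 11.88 and 12.37, and UROD, a later enzyme of the pathway, had a mean of 13.55 ± 0.05. FECH, which inserts the iron, had a mean of 7.74 ± 0.17, and ALAD was near the lower end at 5.87 ± 0.45. Heme enzymes therefore lay far apart in signal, each on its own probe. The transferrin receptor TFRC (mean 12.22 ± 0.31), the Rh-associated glycoprotein RHAG (12.17 ± 0.16) and the glycophorin GYPC (10.27 ± 0.16) were detected. Among the genes not detected on all 5 arrays, SLC4A1, the band 3 anion exchanger, was above background on 4 and AHSP, the chaperone of alpha globin, on 2.

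**Figure D3:**
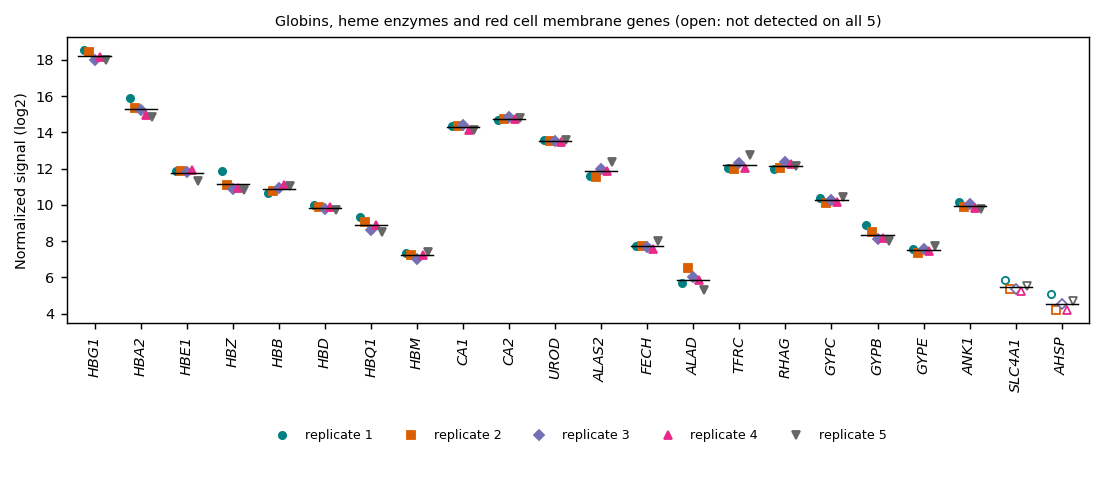
Normalized log2 signal (vertical axis) of each of the 5 scrambled arrays for globins, heme enzymes and genes of the red cell surface and membrane skeleton, with the mean as a line. Filled symbols are detected on all 5 arrays, and HBG1 and HBA2 lie highest, while SLC4A1 and AHSP are open and lie lowest.

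RefSeq promoters (GRCh38.p14, from 250 bases before to 50 after the start of a gene) matched 14945 of the 19099 symbols and were searched for AGATAA and TGATAA on both strands, forms of the site that GATA factors bind. A match was found in 625 of 7931 promoters of detected genes (7.88%), in 712 of 3719 of genes above background on no array (19.1%) and in 1780 of all 14945 (11.9%). Of the 15 detected red cell genes with a promoter, 9 held a match. So did 3 of 14 detected lineage transcription factors, among them TAL1 and KLF1, and 2 of 11 detected platelet receptors. Among detected granule cargo genes with a promoter, 2 of 9 held a match, PPBP being one of them. A stretch that holds a match is shown for some genes of these lists, on the strand of the gene, with the match in capitals, TTATCT and TTATCA being the same sites on the other strand. They lay on the build's minus strand at chrX:55031087-55031116 (ALAS2), chr11:5234544-5234573 (HBD), chr6:49636853-49636882 (RHAG), chr9:97945014-97945043 (HEMGN), chr1:47232353-47232382 (TAL1), chr19:12887250-12887279 (KLF1), chr19:55038424-55038453 (GP6) and chr4:73988390-73988419 (PPBP).
ALAS2: ctactttgggttTTATCTctagcaaggaag
HBD: atgaaaccctgcTTATCTtaaaccaacctg
RHAG: agtcctttgttcTTATCAacatctcacagc
HEMGN: accatggttttgTTATCAgtgaaatgggga
TAL1: cgcggcagtgccTTATCTctgcggcgcaca
KLF1: ccttgctttgccTTATCAgaggctgcagcc
GP6: gctggccagaggAGATAAgcgcggctcctt
PPBP: caggtgtaaggaAGATAAgtattgagaaag

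The match began 35 bases before the start in TAL1, 66 in KLF1, 31 in RHAG and 177 in GP6. The window of PPBP held 2 matches, of which 1 is shown, and the other promoters shown held 1 each. The promoters of GATA1, GATA2 and ITGA2B held no such match in this window, and HBG1 had no entry in the promoter table. Promoters of detected genes had a mean of 25.7 CpG dinucleotides and 64.3% GC, against 15.0 and 56.4% in genes above background on no array. The 15 red cell genes had 11.9 CpG dinucleotides and 54.2% GC. A match is a description of the sequence and not a bound site.

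All 18 cell division genes were detected, against 51.1% of all genes with a symbol. Their median percentile was 74.9. The mitotic cyclins CCNB1 and CCNB2 had means of 12.20 ± 0.04 and 12.90 ± 0.14, the kinase CDK1 one of 10.94 ± 0.14, thymidylate synthase (TYMS) one of 13.14 ± 0.06 and topoisomerase TOP2A one of 10.89 ± 0.28. The median SD of the 18 genes was 0.14, against 0.18 for all detected genes with a symbol. TOP2A lay above both medians, and AURKB varied more widely, with 7.49, 7.74, 8.88, 8.77 and 9.31. The inhibitor CDKN1A had a mean of 7.47 ± 0.23. Of 16 cell division genes with a promoter, 12 held a CCAAT box, the site of NF-Y, on either strand, against 5440 of all 14945 promoters (36.4%). Stretches with a match are shown for 4 of them, at chr17:40417933-40417962 (TOP2A, minus strand), chr10:60778168-60778197 (CDK1, plus strand), chr5:69167082-69167111 (CCNB1, plus strand) and chr15:59105079-59105108 (CCNB2, plus strand), with the match in capitals and ATTGG being the same site on the other strand.
TOP2A: gagcgagtcagggATTGGctggtctgcttc
CDK1: aatttgaactgtgCCAATgctgggagaaaa
CCNB1: tgccacgaacaggCCAATaaggagggagca
CCNB2: tgcgcagggccgcCCAATggggcgcaagcg

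The shown match began 53 bases before the start in TOP2A, 55 in CCNB1 and 54 in CCNB2, and 150 in CDK1. The windows of TOP2A and CCNB2 held 4 matches each, that of CCNB1 held 2 and that of CDK1 held 1.

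Of 18 survival and death genes, 17 were detected (94.4%, against 51.1% of all genes with a symbol), with a median percentile of 66.9. BIRC5, the inhibitor of apoptosis that is made in mitosis, had 13.69, 13.72, 13.79, 13.82 and 13.95. BCL2 had a mean of 7.80 ± 0.03, BCL2L1, the main survival factor of platelets, one of 6.78 ± 0.34 and MCL1 one of 9.63 ± 0.25. The death activators PMAIP1 (mean 12.20 ± 0.09), BCL2L11 (11.00 ± 0.09) and BBC3 (10.93 ± 0.25) and the effector BAX (11.01 ± 0.07) were all above percentile 75. APAF1, which assembles the apoptosome, was above background on 3 arrays.

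Proplatelet and cytoskeleton genes were detected at 24 of 26 (92.3%, against 51.1% of all genes with a symbol), with a median percentile of 85.5. Beta actin (ACTB) had a mean of 16.89 ± 0.22, the alpha tubulin TUBA1B one of 15.87 ± 0.12, the formin DIAPH1 one of 14.89 ± 0.16 and filamin A (FLNA) one of 12.22 ± 0.29. Only 2 members of the list were not detected on all 5 arrays. TUBB1, the beta tubulin of platelets, was above background on 0 arrays, with 3.33 ± 0.36, and the myosin light chain MYL9 on 2. Nonmuscle myosin MYH9 had 10.67, 10.53, 10.09, 10.08 and 9.51. Profilin 1 (PFN1) had 13.56, 12.95, 12.33, 12.19 and 11.81, and WAS had 8.12, 7.66, 7.36, 7.15 and 7.08. These 3 genes were highest on replicate 1 and lowest on replicate 5, whereas ARPC1B was lowest on replicates 1 and 2, with 10.06, 10.03, 11.12, 10.94 and 11.17.

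**Figure D4:**
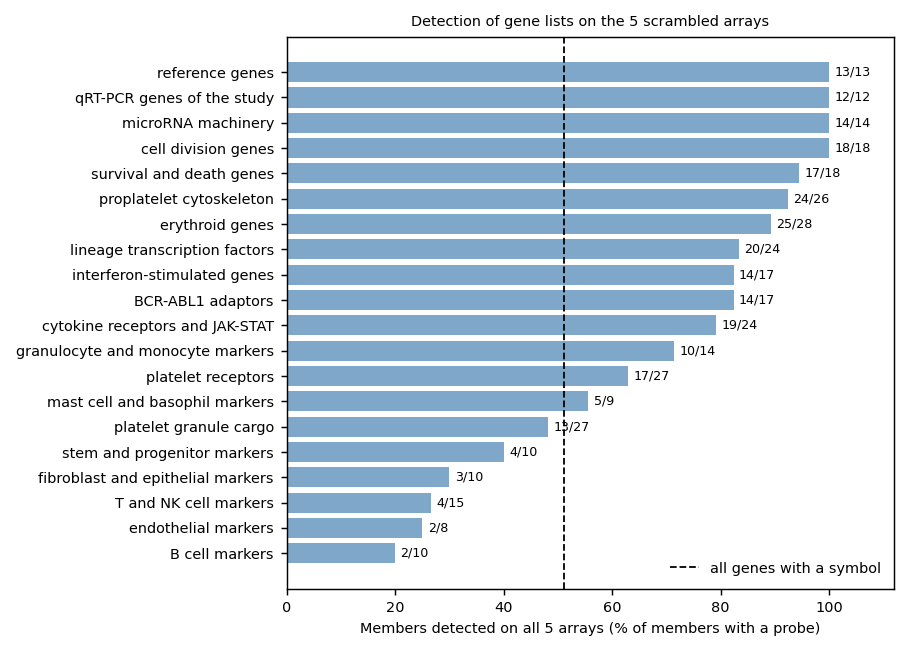
Share of members with a probe that were detected on all 5 scrambled arrays (horizontal axis, from 0) for the 20 gene lists, with the counts at the bars. The dashed line is the share of all genes with a symbol, 51.1%, and the lists of T cell, B cell, endothelial, fibroblast and epithelial and stem cell markers and of platelet granule cargo lie below it.

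Markers of other blood cells were detected in unequal measure, beside a share of 51.1% over all genes with a symbol. In RNA of a whole culture, a low signal in every cell and a high signal in a few cells cannot be told apart. For B cells, 2 of 10 markers were detected and for T and NK cells 4 of 15, while the defining markers MS4A1, PAX5, CD2, CD5 and LCK were above background on 0 arrays. Among the markers that were detected, CD4 had 14.64, 13.16, 12.21, 12.34 and 11.88 (mean 12.85 ± 1.11) and CD79A had 12.88, 12.47, 11.23, 11.63 and 11.54 (mean 11.95 ± 0.69). Both were highest on replicate 1, and 98.3% and 94.1% of detected features had an SD no larger than theirs. CD3D was steady, with 11.69, 11.59, 11.43, 11.66 and 11.37, although CD3E and CD3G were above background on 1 array each. Of granulocyte and monocyte markers, 10 of 14 were detected, with a median percentile of 19.7. This median depended on which members counted as detected, and was 34.3 with detection on at least 3 of 5 arrays and 32.0 without replicates 1 and 2, each over 12 members. MPO had a mean of 7.66 ± 0.33, ELANE one of 7.77 ± 0.12 and CTSG, the brightest of them, one of 10.41 ± 0.18. CD14 had 7.41, 6.49, 5.51, 5.47 and 5.32, again with the highest value on replicate 1.

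Basophil and mast cell genes were detected at 5 of 9 (55.6%), near the 51.1% of all genes with a symbol. HDC, the enzyme that makes histamine, had 14.55, 14.79, 15.06, 15.10 and 15.61 (mean 15.02 ± 0.40, percentile 96.8). The lowest of these values was that of replicate 1 and the highest that of replicate 5. FCER1A, the alpha chain of the IgE receptor, had a mean of 10.17 ± 0.19, ENPP3, a basophil surface enzyme, one of 10.82 ± 0.05 and CPA3, a granule protease, one of 8.60 ± 0.10. MS4A2, the beta chain of the receptor, and CLC were above background on 0 arrays, and CMA1 on 1.

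Of 10 stem and progenitor markers, 4 were detected (40%, against 51.1% of all genes with a symbol). CD34 and CRHBP were above background on 1 array, PROM1 and THY1 on 0 and CD38 on 4. HOXA9 had a mean of 12.03 ± 0.14, and KIT, given with the cytokine receptors, one of 9.25 ± 0.25. Endothelial markers were detected at 2 of 8, TIE1 with a mean of 10.05 ± 0.22 and ESAM with one of 7.91 ± 0.21. Of the fibroblast and epithelial markers, 3 of 10 were detected. The collagens COL1A2 and COL3A1, DCN and CDH1 were above background on 0 arrays, whereas KRT18 had a mean of 12.31 ± 0.08, EPCAM one of 11.47 ± 0.14 and KRT8 one of 9.17 ± 0.54.

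The arrays with the fewest spots above background bear on these counts. On replicates 3, 4 and 5 alone, 21 of 24 lineage transcription factors were above background on every array, 18 of 27 platelet receptors, 15 of 27 cargo genes and 27 of 28 red cell genes. Of all genes with a symbol, 11664 of 19099 were. The counts for other cell types became 5 of 15 for T and NK cells, 3 of 10 for B cells, 12 of 14 for granulocytes and monocytes, 5 of 10 for fibroblasts and epithelia and 5 of 8 for endothelium. Endothelial markers are thus the list whose share moved most, from 2 to 5 of 8, with CDH5, KDR and TEK as the added members. PF4, TUBB1, P2RY12 and GP5 were at 0 of all 5 arrays, so that this choice of arrays could not change them.

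All 14 genes of microRNA processing and silencing were detected, against 51.1% of all genes with a symbol. Their median percentile was 52.7. Among the Argonaute proteins, which carry the mature microRNA, AGO2 had 11.89, 11.68, 11.93, 11.77 and 12.26 (mean 11.91 ± 0.22), AGO1 had a mean of 10.10 ± 0.47 and AGO3 one of 10.21 ± 0.23. AGO4 was lowest, at 6.76 ± 0.30. The nuclear processing enzyme DROSHA had a mean of 10.26 ± 0.17, and its partner DGCR8 had 7.15, 7.24, 6.44, 6.29 and 5.78. DICER1, which cuts the hairpin, ranged from 8.83 to 9.09 over the arrays. Interferon-stimulated genes were detected at 14 of 17 (82.4%, against the same 51.1%), with a median percentile of 41.0. They ranged from IFITM1 (mean 14.56 ± 0.14), ISG15 (13.36 ± 0.12) and IFI6 (12.62 ± 0.39) down to IFIT2 (6.64 ± 0.17). Of these, IFIT3 and OAS1 were above background on 4 arrays and OAS2 on 3. All 12 genes on the list of the qRT-PCR assays were detected, with a median percentile of 33.3. That list was drawn up by the study on arrays of this series, so that it is no independent choice. The brightest was the metallothionein MT1X, with 16.13, 15.77, 15.46, 15.60 and 15.37.

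The top of the ranking belonged to protein synthesis. Over all genes with a symbol, 51.1% were detected. Of 86 genes for cytosolic ribosomal proteins on the array, 85 were detected, and 64 of them were among the 100 brightest genes with a symbol and 79 among the 500 brightest. Their median percentile was 99.4. The exception at the low end was RPL3L, the muscle form of RPL3, at percentile 5.69. Respiratory chain and ATP synthase genes gave 27 of the 500 brightest and histones 16. Among the respiratory genes 75 of 81 were detected, with NDUFA9 the lowest at percentile 62.2, and their median SD was 0.11, lower than that of the ribosomal proteins (0.13). The 13 common reference genes were all detected (median percentile 96.1), from RPLP0 and GAPDH at the top to TBP at percentile 6.48. Proteasome subunits were detected at 44 of 46 (median percentile 84.0) and hnRNP genes at 22 of 22 (median percentile 75.1).

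The 20 brightest genes with a symbol held 13 ribosomal protein genes. RPS2 had 18.58, 18.54, 18.08, 18.27 and 18.04, and RPL38 had a mean of 18.07 ± 0.11. Others were RPL13, RPL13A, RPS27, RPS21, RPL35A, RPS28, RPS19, RPL37A and RPS18, with means between 17.75 and 18.06. Elongation factor EEF1A1 had a mean of 18.08 ± 0.12. SNAR-A3, a short noncoding RNA of a family of near-identical copies, was the brightest, with 19.17, 18.99, 18.40, 18.75 and 18.47, and the 28S ribosomal RNA gene RNA28SN5 had a mean of 18.28 ± 0.35. The remaining 3, apart from HBG1, were NAA40, SLC66A1 and GPR155. GPR155, the dimmest of the 20, had a mean of 17.75 ± 0.27, and the gene next below it, the metallothionein MT2A, had one of 17.71.

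Probes of the same gene could differ widely. NAA40 had a mean of 18.07 on its brightest probe and 3.91 on the other, which was above background on 2 arrays. GPR155 had 17.75 on its brightest probe and 5.17 and 5.03 on the others. Of the 500 brightest genes, 183 had another probe, and in 26 of these no other probe was detected on all 5 arrays. In 51 of the 183 every other probe was more than 6 log2 units dimmer. Over the 1703 genes with a symbol and at least 2 detected probes, the brightest and the dimmest differed by a median of 1.64 log2 units. HBG1 (18.22 and 18.14) was among those whose probes gave close signals. With the mean of a gene's probes in place of the brightest, 13 of the 20 brightest genes stayed in that group.

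The spread between the 5 arrays was small for most features. The median SD was 0.20 log2 units over the 13388 features, with 5% of features below 0.07 and 5% above 0.73. For comparison, the median SD between the 10 spots of a probe on 1 array was 0.07, on log2 signals before normalization. It was taken over the 577 probes with that many spots that were above background on all 5 arrays. The correlation over detected features was lowest for replicates 1 and 5 (r = 0.956) and highest for replicates 3 and 4 (r = 0.993), features being no independent replicates. The arrays did not share equally in the spread. Among the 500 features with the largest SD, replicate 1 was the highest array in 411 and replicate 5 or 3 the lowest in 273 and 198. Over all 13388 detected features, replicate 1 was the highest in 33.4% and the lowest in 24.9%. Over the detected genes with a symbol alone, it was the highest in 27.7% and the lowest in 29.2%.

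Long intergenic RNA probes made up 186 of those 500 features (37.2%) and 12.1% of all detected features, and their median SD was 0.44. Of the 7405 such features on the array, 1624 (21.9%) were detected, against 9445 of 17993 protein-coding genes (52.5%). Of the 10 features with the largest SD, only FAM177B had a symbol, with 13.18, 11.03, 8.39, 8.84 and 7.19. A long intergenic RNA probe had the largest SD of all, with 15.04 on replicate 4 and between 6.61 and 8.24 on the other arrays. CCDC78 showed the more common pattern, with 16.30 on replicate 1 and 13.17, 11.86, 12.49 and 11.74 on the others. The order with replicate 1 highest, replicate 2 next and replicates 3 to 5 lowest was found in 3216 of the 13388 detected features (24.0%). It was found in 395 of the 500 with the largest SD and in 1753 of the 9757 detected genes with a symbol (18.0%). It held for 6 of 25 detected red cell genes, among them HBG1 and HBA2, for 5 of 20 lineage transcription factors, among them SPI1, for 7 of 24 proplatelet and cytoskeleton genes, among them PFN1, MYH9 and WAS, and for 3 of 17 platelet receptors, among them FCER1G. Among markers of other blood cells it held for 1 of 4 of T and NK cells (CD4), 1 of 2 of B cells (CD79A) and 2 of 10 of granulocytes and monocytes, one of them CD14.

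**Figure D5:**
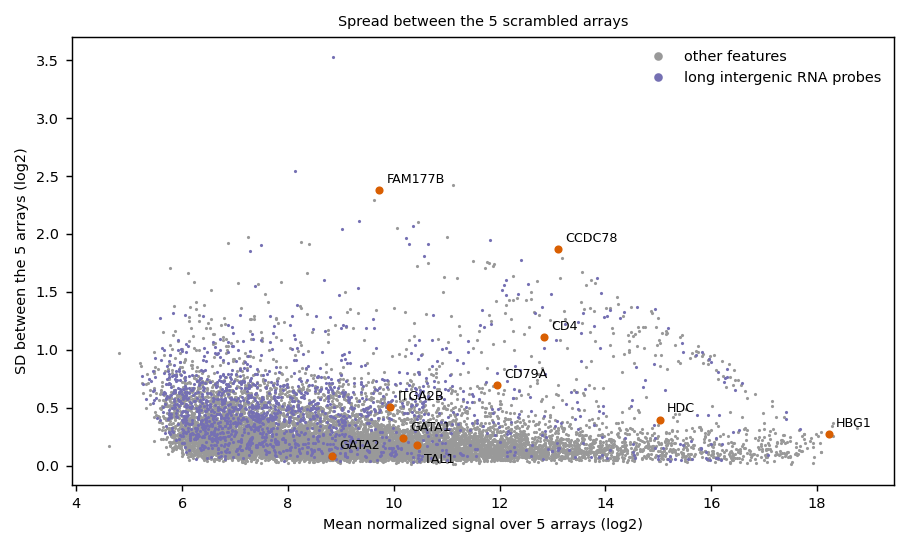
SD between the 5 scrambled arrays (vertical axis, log2) against the mean normalized log2 signal (horizontal axis) for the 13388 detected features, with long intergenic RNA probes in purple. GATA1, GATA2 and TAL1 lie low, ITGA2B higher, and CD4, CCDC78 and FAM177B stand out.

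The arrays lay on 2 slides, replicates 1, 3 and 5 on slide 1 and replicates 2 and 4 on slide 2. By limma with Benjamini-Hochberg adjustment, 0 of 13388 features (0%) differed between the slides, and 291 (2.17%) had an unadjusted p under 0.05. Without replicate 1 that last count was 1967, with 0 features after adjustment. For a single gene an exact permutation test of 3 arrays against 2 cannot go below p = 0.1. On data simulated for this comparison over 13388 features, limma recovered 76.5% of 200 features changed by 2 log2 units, with 5 false calls. The simulated noise was independent between features, whereas many features of the real arrays shared an order of the replicates. These rates therefore do not carry over to the real arrays, and the count of 0 does not show that the slides were alike.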

How the data were processed

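Samples were grouped by their titles, and only the 5 scrambled arrays were used. The authors deposited the output of Agilent Feature Extraction 10.7.3.1 (per the labels), in which the processed signal and the median signal are intensities, the former already corrected for background, and a table of normalized log2 values for 29271 probes. The methods give another software version. Control spots were left out and spots with outlier flags set missing. Cyclic loess, in its fast form with 3 iterations, brought the log2 signals of the 5 arrays together (limma 3.58.1 under R 4.3.3), and spots of a probe were averaged. A probe counted as above background on an array when at least 0.5 of its unflagged spots were flagged so. Names were taken from RefSeq (GRCh38.p14) for 24907 probes. No gene names or coordinates of the array were used. The genes named are the 20 brightest with a symbol, the 10 features of largest SD, the members of 20 gene lists, and families among the 500 brightest. Members and lists were chosen with earlier results of these data known. Slides were compared with limma, tested on simulated data. Alternatives covered detection, normalization, background correction (normexp with an offset of 50 on the median signal, since the mean signal was not used here), probe choice, the authors' table, and each array left out, and removal of replicates 1 and 2 was added after seeing the data. The authors' log2 values had r of at least 0.993 with those used here on each array. Some genes that these rules cover are left out of the text. Precision is limited by there being only 5 arrays.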

Additional observations from a re-analysis of the deposited data

Results flagged for a closer look

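Of 274 sets of 5 values, one for each detected gene named by the rules and 2 for the arrays' background, 13 (4.74%) held an array whose gap to the nearest other was above 0.71 of the range. Chance flags about 5% of sets that were not chosen by their spread. That rate does not apply to the 10 features of largest SD, which were among the sets. The long intergenic RNA probe and the probe without a gene name given below were of these 10. Replicate 1 was the array set apart in 7 of the 13 sets. It was the highest for BCR (7.94, next 7.31), HBZ (11.90, next 11.11), NKG7 (11.09, next 10.48), PPIA (16.49, next 16.35) and a probe whose only name is its probe identifier (15.29, next 10.83), and the lowest for STAT5B (9.26, next 9.43) and CCNB1 (12.13, next 12.20). Replicate 5 was the highest for PTGIR (9.07, next 8.70) and XIAP (10.21, next 9.89), and the lowest for VASP (11.07, next 11.58) and HBE1 (11.30, next 11.81). Replicate 2 was the highest for CD151 (14.56, next 14.43). Replicate 4 was the highest for a long intergenic RNA probe (15.04, next 8.24), the largest of these gaps.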

How the results depend on the processing

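Only the scrambled group was used. No paired analysis was possible because the comparison holds a single group, whose replicate numbers pair with nothing in it. Detection counts stayed within 1.5 times the reported ones under every alternative run, with 9571 to 11732 genes with a symbol and 13200 to 16863 features. The brightness percentiles of the 4 marker genes moved by less than their SD over arrays in 42 of 56 cases, and the list medians in 217 of 280. A looser filter adds dim features below a gene, which raises that gene's percentile by construction, while dim members that enter a list can pull its median the other way. With detection on at least 3 of 5 arrays, percentiles were 76.0 for GATA1, 61.2 for GATA2, 78.3 for TAL1, 73.9 for ITGA2B, 65.4 for lineage transcription factors, 88.5 for proplatelet cytoskeleton, 55.4 for cytokine receptors and JAK-STAT, 61.0 for BCR-ABL1 adaptors, 74.0 for erythroid genes, 66.3 for B cell markers, 34.3 for granulocyte and monocyte markers, 5.7 for endothelial markers, 65.8 for fibroblast and epithelial markers, 62.4 for microRNA machinery, 43.3 for interferon-stimulated genes, 80.0 for cell division genes, 72.9 for survival and death genes and 47.0 for qRT-PCR genes of the study. Without replicates 1 and 2, a choice made after seeing the data, they were 76.8 for GATA1, 61.8 for GATA2, 79.2 for TAL1, 76.7 for ITGA2B, 65.7 for lineage transcription factors, 67.5 for platelet receptors, 53.0 for platelet granule cargo, 88.0 for proplatelet cytoskeleton, 55.1 for cytokine receptors and JAK-STAT, 60.5 for BCR-ABL1 adaptors, 73.4 for erythroid genes, 66.0 for B cell markers, 32.0 for granulocyte and monocyte markers, 4.05 for endothelial markers, 61.1 for fibroblast and epithelial markers, 61.7 for microRNA machinery, 44.3 for interferon-stimulated genes, 80.0 for cell division genes, 73.1 for survival and death genes, 97.4 for reference genes and 45.7 for qRT-PCR genes of the study. The endothelial median fell from 52.1 because 5 members entered in place of 2. With the mean of the detected probes they were 53.7 for GATA2, 75.2 for TAL1, 56.8 for platelet receptors, 51.2 for platelet granule cargo, 83.1 for proplatelet cytoskeleton, 55.2 for cytokine receptors and JAK-STAT, 59.7 for BCR-ABL1 adaptors, 80.7 for T and NK cell markers, 74.0 for B cell markers, 55.3 for microRNA machinery, 43.0 for interferon-stimulated genes, 76.8 for cell division genes and 94.4 for reference genes, and 13 of the 20 brightest genes stayed among them. With the authors' normalized table they were 47.8 for GATA2, 46.4 for platelet granule cargo, 49.4 for cytokine receptors and JAK-STAT, 54.6 for BCR-ABL1 adaptors, 50.2 for microRNA machinery, 38.3 for interferon-stimulated genes, 73.9 for cell division genes and 29.2 for qRT-PCR genes of the study. Leaving out each array in turn gave percentiles of 68.8 to 73.5 for GATA1, 50.7 to 56.6 for GATA2, 72.0 to 75.5 for TAL1, 48.5 to 53.9 for platelet granule cargo, 85.2 to 87.1 for proplatelet cytoskeleton, 57.0 to 61.0 for BCR-ABL1 adaptors, 77.9 to 80.9 for T and NK cell markers, 71.6 to 74.2 for B cell markers, 19.5 to 24.8 for granulocyte and monocyte markers, 63.1 to 71.0 for mast cell and basophil markers, 43.4 to 52.6 for endothelial markers, 82.3 to 84.7 for fibroblast and epithelial markers, 52.6 to 57.4 for microRNA machinery, 36.8 to 41.7 for interferon-stimulated genes, 74.7 to 77.5 for cell division genes, 66.0 to 70.3 for survival and death genes and 32.6 to 39.8 for qRT-PCR genes of the study. It also gave a median SD of 0.180 to 0.218, lowest without replicate 1 or 5, and kept 18 to 20 of the 20 brightest genes. Without normalization the median SD was 0.617 and 1 feature differed between the slides, where the reported fit called 0 and 291 had an unadjusted p under 0.05. The cause of the other shifts was not tested.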
